A study of Mus musculus with 19 samples.

Results

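The genes that encode the proteins of the mitochondrial ribosome were followed in cultured neural progenitor cells, the dividing cells of the embryonic cortex that give rise to neurons and glia. They were taken by name, as every gene of the count table called Mrpl or Mrps and a number, which gave 76 of 26621 genes. Of these, 47 are Mrpl genes, named for the large subunit, and 29 are Mrps genes, named for the small subunit. All 76 passed the filter on low counts, under which 13105 genes were tested. The cultures were derived from the cerebral cortex of mice at day 17.5 of gestation and kept on Matrigel in medium with bFGF and EGF. They were either wild type (WT) or from a conditional knockout (cKO) of Mettl8, a gene whose enzyme adds a methyl group to cytidine in mitochondrial tRNA, which yields 3-methylcytidine (m3C). The sources used here give neither the strain nor the Cre driver. RNA-seq covered 6 WT and 6 cKO libraries, and the library names divide these into 2 sets. Set 1 holds WT replicates 1 to 3 with cKO replicates 1 and 2, and set 2 holds WT replicates 4 to 6 with cKO replicates 3 to 6. A second assay, hydrazine-aniline cleavage sequencing (HAC-seq) for m3C, covered 4 WT and 3 cKO libraries.

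Mitochondria make core proteins of the respiratory chain on their own ribosome. Its RNAs are encoded in mitochondrial DNA, while all of its proteins are encoded in the nucleus, made in the cytosol and imported. The small subunit reads the mRNA and holds the decoding site, and the large subunit forms the peptide bond and releases the chain through an exit tunnel at the inner membrane. The mammalian form has exchanged much of the RNA of its bacterial ancestor for extra proteins, so it holds both proteins with a bacterial counterpart and proteins without one. Neurons formed from progenitors depend on oxidative phosphorylation, and so on this ribosome.

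Library totals ran from 11830839 to 18863781 counts, and the 76 genes took 0.583% to 0.654% of them. Levels are in CPM, read counts relative to the library's size after scaling by TMM, a correction for library composition. They are not corrected for transcript length, so levels of different genes are not ranked against each other. Counts of Mettl8 over the whole gene were 46.7 ± 10.7 CPM in WT and 72.5 ± 7.96 in cKO libraries (SD, n = 6 each; log2 fold change 0.67, SE 0.119, edgeR adjusted p = 0.265). A whole-gene count does not isolate the deleted part and so does not check the knockout. Of 8 progenitor markers, all were detected, with a summed level of 11792 to 16964 CPM over the 12 libraries, and all 8 were called between sets, 4 higher and 4 lower in set 2 (log2 fold changes from -0.49 to 1.08). Between sets, summed neuron markers ran from 119 to 148 CPM in set 1 and from 188 to 373 in set 2, with 5 of 6 tested genes called higher in set 2. Summed astrocyte markers ran from 1630 to 2381 CPM in set 1 and from 480.3 to 998 in set 2, and oligodendrocyte lineage markers from 717 to 1002 and from 263 to 555, with 4 of 5 tested genes called lower in each. Microglial markers summed to at most 0.574 CPM, with Tmem119 and C1qa at 0, endothelial markers to at most 3.30 and meningeal fibroblast markers to at most 2.49. Counts of mitochondrially encoded genes made up 2.35% to 2.49% of each library in set 1 and 1.81% to 2.11% in set 2. The part of these differences in the set results below was not tested. In such bulk samples, fewer cells of a type and less RNA per cell cannot be told apart. The labels do not say whether replicates were separate cultures or animals. By counts of Y-linked genes, WT replicate 3 and cKO replicates 1 and 5 were called male and the other libraries female. The libraries of a genotype thus did not all come from the same cells. How many independent animals they stand for is not known. The p-values therefore cover only the spread among these libraries, perhaps in part a technical one.

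The 76 genes lie on 17 chromosomes, and 67 of them have a promoter window in the RefSeq table for build GRCm38.p6, reaching from 250 bases before the start to 50 after it. The window held CCGGAAG, the core of ETS factor sites, in 24 of 67 members (35.8%) against 9.93% of 27025 genes. The core of the NRF1 site, searched with 1 free base, was in 12 (17.9%) against 5.19% of genes. AAGATGGC, a core of the YY1 site, was also in 12 (17.9%) against 3.19%, and TATAAA in 5 (7.46%) against 15.7%. Both strands were searched. The comparison took all 27025 genes with a window, expressed here or not, while all members were among the 13105 genes that passed the filter. Shares among expressed genes or similar gene groups were not counted, so an excess particular to these genes is not shown. The ETS core ends in the letters that open the YY1 core, and the number of members in which the matches shared them was 0. A match is a description of the letters and not a bound site. The stretches below stand before the start of 5 genes that were called between library sets, with any of these motifs in capitals, and were cut where another protein-coding gene begins. Mrpl3 and Mrpl34, with the ETS core, and Mrps21, with the NRF1 core, are shown because they hold a motif there. Mrps6 and Mrps18b are shown because their sets did not overlap, and carry none of them in these bases. The 5 stretches thus give no rate. Whole windows held the ETS core in 3 of 7 members called higher and 5 of 10 called lower in set 2. The same counts were 0 and 2 for NRF1, 0 and 4 for YY1, and 1 and 0 for TATAAA. The Mrps6 stretch ends 14 bases before its start, where the span of Slc5a3 begins.
Mrpl3, chr9:105053168-105053267, plus strand: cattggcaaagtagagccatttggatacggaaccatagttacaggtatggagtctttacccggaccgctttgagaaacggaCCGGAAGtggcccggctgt
Mrpl34, chr8:71464826-71464925, plus strand: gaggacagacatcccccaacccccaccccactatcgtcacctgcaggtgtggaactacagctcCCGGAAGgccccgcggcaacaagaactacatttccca
Mrps21, chr3:95871515-95871614, minus strand: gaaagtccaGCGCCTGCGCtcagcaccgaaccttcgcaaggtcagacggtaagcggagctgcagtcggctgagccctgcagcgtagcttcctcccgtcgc
Mrps6, chr16:92058236-92058321, plus strand: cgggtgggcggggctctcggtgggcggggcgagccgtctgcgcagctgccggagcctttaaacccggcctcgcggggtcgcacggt
Mrps18b, chr17:35916441-35916511, minus strand: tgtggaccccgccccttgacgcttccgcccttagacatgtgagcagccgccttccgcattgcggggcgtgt

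Many of these genes start back to back with a neighbour. A start on the other strand within 500 bases, facing away, was found for 22 of the 67 members (32.8%). The share was 10.9% over the same 27025 genes, expressed or not. Mrps11 and Mrpl46, a small and a large subunit gene, are each other's partner, with starts 42 bases apart on chromosome 7. The 41 bases between the starts, which both genes share as their nearest upstream sequence, hold none of the 4 motifs.
Mrpl46 and Mrps11, chr7:78783090-78783130, minus strand: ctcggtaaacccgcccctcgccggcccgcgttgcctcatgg

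The first question was whether the genes differed between Mettl8 cKO and WT cells. No member was called by edgeR's quasi-likelihood test at an adjusted p under 0.05 (0 of 76, against 0.0% of all 13105 genes), and DESeq2 and limma voom called 0 members as well. Summed over the 76 genes, the WT libraries stood at 6387.8, 6273.8 and 6377.8 CPM in set 1 and at 6266.8, 6130.2 and 6202.2 in set 2. The cKO libraries stood at 6077.5 and 5957.8 CPM in set 1 and at 5880.7, 6418.3, 6050.0 and 5901.9 in set 2. The groups overlapped through cKO replicate 4 alone, the highest of all 12 libraries and the one with the fewest counts, while the other 5 cKO libraries lay below every WT library. The mean was 6273 ± 99.6 CPM in WT and 6048 ± 198 in cKO libraries (SD, n = 6 each), and such sums over chosen genes were given no test. Summed Mrpl over summed Mrps levels lay between 2.60 and 2.71 in the 12 libraries (2.66 ± 0.0411 in WT and 2.67 ± 0.0195 in cKO). By library set this ratio was 2.65 ± 0.0403 in set 1 and 2.67 ± 0.019 in set 2 (SD, n = 5 and 7). The Mrpl mean of log2 CPM, in which each gene counts alike, exceeded the Mrps mean by 0.902 ± 0.0127 and 0.860 ± 0.0319. The measures thus moved in opposite directions between sets, and neither was tested.

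**Figure D1:**
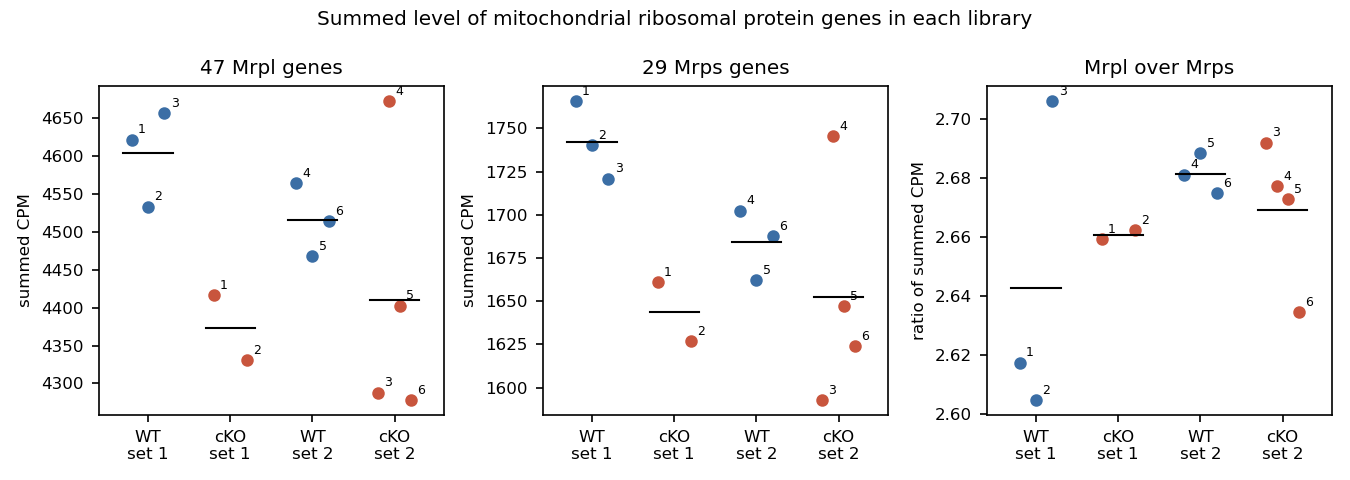
Summed CPM of the 47 Mrpl genes, of the 29 Mrps genes and the ratio of the sums (vertical axes, not starting at 0) in each RNA-seq library, by genotype and library set. Points are libraries numbered by replicate and lines are group means. The cKO libraries lie below the WT libraries of their set in both sums except for cKO replicate 4, and for Mrps in set 2 the ranges come close.

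Gene by gene, 49 of 76 members (64.5%) had a fitted log2 fold change (cKO over WT) below 0, against 50.4% of all genes tested. The median was -0.057, a change of -3.86%, against -0.000996 over all genes. Among Mrpl genes 32 of 47 were below 0, with a median of -0.055, and among Mrps genes 17 of 29, with a median of -0.063. Without cKO replicate 4 the medians were -0.064 and -0.079, and in library set 2 alone the Mrps median was 0.0070. Counting Mrps18a and Mrps30 with the large subunit, where structures place them, and leaving out Mrps36, a component of the alpha-ketoglutarate dehydrogenase complex, gave -0.059 and -0.051. Among proteins with a bacterial counterpart, 22 of 30 Mrpl and 11 of 18 Mrps genes were below 0, and among those without one, 10 of 17 and 6 of 11. Fitted differences ran from -0.32 for Mrpl36, a gene of under 50 counts on average, to 0.17 for Mrps15.

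At an unadjusted p under 0.05, 6 members had a lower and 0 a higher level in cKO, against 3.28% and 2.86% of all genes. Their adjusted p-values in edgeR ran from 0.803 to 0.806, so none was called. Mrps16, a small subunit protein with a bacterial counterpart, had the smallest p. Its lowest, median and highest WT libraries stood at 68.4, 73.1 and 85.8 CPM, and the cKO libraries at 64.1, 65.8 and 70.9. The groups overlapped, with a log2 fold change of -0.17 (SE 0.0613, edgeR adjusted p = 0.803). Mrpl46, the large subunit partner of Mrps11 shown above, was the only member whose groups did not overlap, against 0.0916% of all genes with cKO below WT and 0.0382% with cKO above. WT libraries stood at 118, 122 and 125 CPM and cKO libraries at 105, 111 and 117 (lowest, median, highest), a log2 fold change of -0.14 (SE 0.0523, edgeR adjusted p = 0.803). Mrps11 itself stood at 53.3 ± 8.41 CPM in WT and 53.2 ± 5.51 in cKO libraries (SD, n = 6 each). The other 4 were Mrpl41 (-0.14), Mrpl42 (-0.13), Mrps21 (-0.15) and Mrpl27 (-0.13), the last of which encodes a protein near the peptidyl transferase centre.

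In the other direction, the smallest p-values belonged to Mrpl9 (log2 fold change 0.15), Mrpl28 (0.12), Mrpl39 (0.13), Mrps15 (0.17), Mrpl34 (0.15) and Mrps23 (0.11), with edgeR adjusted p-values from 0.825 to 0.877. Genes picked for their roles were not called either. Mrpl10, Mrpl11 and Mrpl12, which form the stalk and its base where translation factors dock, had log2 fold changes of 0.05, -0.05 and 0.11 (SE 0.0863, 0.0591 and 0.125). Mrpl45, which ties the large subunit to the inner membrane at the tunnel exit, stood at 291 ± 12.1 CPM in WT and 279.85 ± 5.42 in cKO libraries (SD, n = 6 each). Mrps12, a protein of the decoding site, had a log2 fold change of 0.03 (SE 0.197), and Mrpl3, next to the peptidyl transferase centre, -0.15 (SE 0.127). Mrps18a, Mrps18b and Mrps18c, 3 relatives of a single bacterial protein, had -0.06, 0.01 and -0.09. For the remaining role genes the values were -0.09 for Mrps30, -0.14 for Mrps36, -0.11 for Mrps34, 0.03 for Mrps22, 0.02 for Mrps2, 0.04 for Mrps7 and -0.0045 for Mrpl44. Data were simulated from these libraries over 13105 genes, with 100 genes changed by a log2 difference of 0.5 and 100 by 1.0. The genotype test recovered 68% and 90% of them. Genes of the lowest counts were not among those changed, and many true changes ease the adjustment for multiple testing. The real genotype fit called 0 genes, so recovery there may be lower. All fitted differences of the members were smaller than 0.5.

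The second question was whether the members differed between library sets, with genotype in the fit. Set 2 against set 1 gave 20 of 76 members (26.3%) called, 9 higher and 11 lower, against 43.8% of all genes (21.5% higher and 22.2% lower). Among the 10544 genes with a mean count of at least 50, a limit that only 3 members missed, 48.3% were called. The share of members called was thus below the background, and the split was 14 higher and 9 lower with upper-quartile scaling in place of TMM. Of Mrpl genes 10 of 47 were called (4 higher, 6 lower) and of Mrps genes 10 of 29 (5 higher, 5 lower). Median log2 fold changes were -0.0053 for Mrpl and 0.035 for Mrps genes against 0.00125 over all genes, and both crossed 0 under other settings. The count was 13 (2 higher, 11 lower) without cKO replicate 2, 11 in WT libraries alone and 4 in cKO libraries alone. The shares of all genes called in these smaller fits are not given here, so the lower counts are not read as a result about the members.

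**Figure D2:**
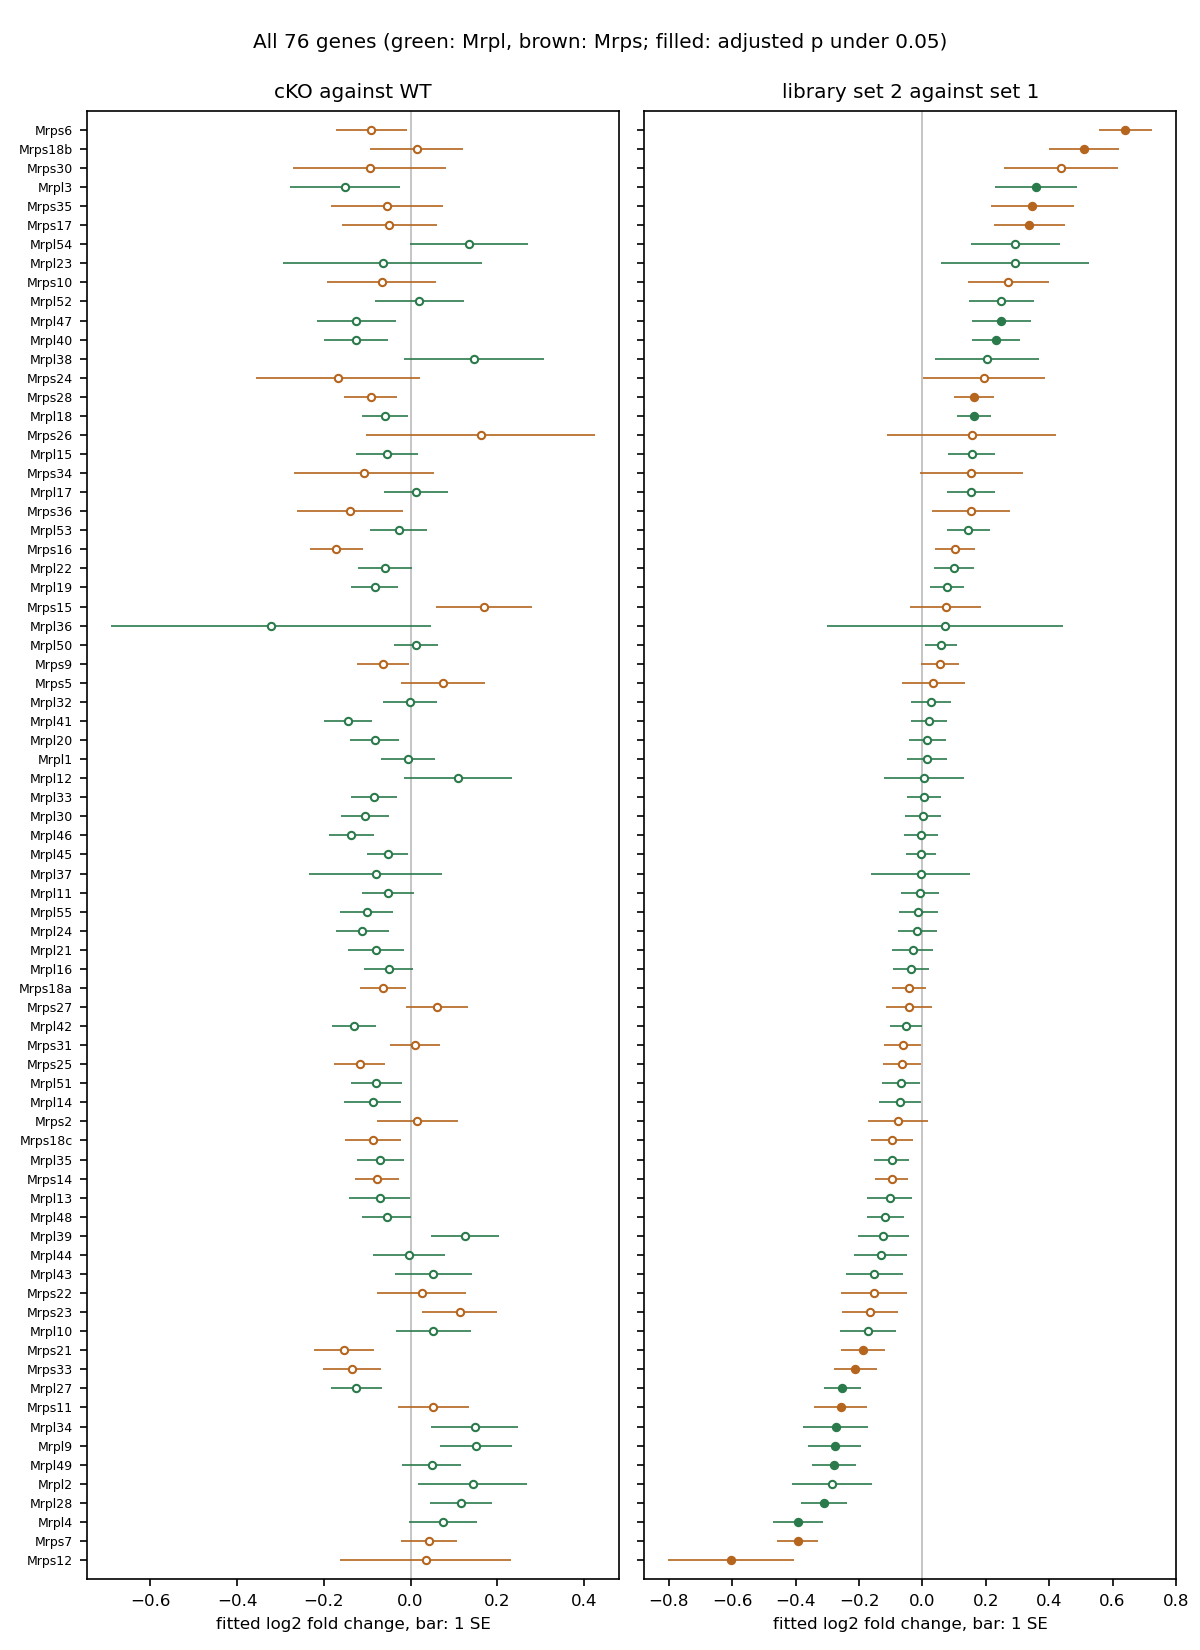
Fitted log2 fold changes with 1 SE of the 76 genes (rows), for cKO against WT (left) and library set 2 against set 1 (right), ordered by the right panel. Mrpl genes are green, Mrps genes brown, and filled points have an adjusted p under 0.05: 0 on the left and 20 on the right.

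Mrps6, a small subunit protein with a bacterial counterpart, was called higher in set 2. Its set 1 libraries stood at 44.5, 33.0 and 35.8 CPM (WT) and 35.3 and 38.4 (cKO), and its set 2 libraries at 49.6, 59.3 and 64.4 (lowest, median, highest of 7). Every set 2 library lay above every set 1 library, and the log2 fold change was 0.64 (SE 0.0836, edgeR adjusted p = 4.82e-06). The gene spans chr16:92058336-92112227 (GRCm38.p6), and Slc5a3, the sodium/myo-inositol cotransporter gene, begins just before it and overlaps it. Slc5a3 was also called higher in set 2 (log2 fold change 1.00, SE 0.0928, edgeR adjusted p = 6.96e-08), at 843 to 1242 CPM in set 1 and 1685 to 2348 in set 2. How the authors' counting divided reads between Mrps6 and Slc5a3 was not tested, so the Mrps6 value is uncertain.

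Mrps18b encodes a small subunit member of the protein family named above. Its set 1 libraries stood at 17.4, 20.6 and 18.4 CPM (WT) and 21.1 and 15.4 (cKO), and set 2 at 22.5, 26.2 and 30.9. The sets did not overlap, and it was called higher in set 2 (log2 fold change 0.51, SE 0.11, edgeR adjusted p = 8.9e-04). No protein-coding RefSeq gene overlaps it, although Ppp1r10 begins within 100 bases of its start. Mrps18a and Mrps18c were not called, with log2 fold changes of -0.04 (SE 0.053) and -0.10 (SE 0.0659), and a difference among the 3 relatives was not tested. The other calls toward set 2 were smaller: Mrpl3 (0.36), Mrps35 (0.35), Mrps17 (0.34), Mrpl47 (0.25), Mrpl40 (0.23), Mrpl18 (0.16) and Mrps28 (0.16), each with overlapping sets. Each of these 7 calls was lost on leaving out some single library: cKO replicate 2 for Mrpl40, cKO replicate 1 or 2 for Mrpl18, cKO replicate 2 or WT replicate 4 for Mrps17, and any of 5 or more libraries for Mrpl3, Mrpl47, Mrps35 and Mrps28.

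Among the lower genes, Mrps7, a protein of the small subunit head, stood at 64.1, 63.1 and 60.4 CPM (WT) and 60.3 and 60.0 (cKO) in set 1, and at 43.4, 46.6 and 52.2 in set 2. It was lower in all 7 set 2 libraries (log2 fold change -0.39, SE 0.0648, edgeR adjusted p = 6.7e-05), but Gga3 and Mif4gd overlap it. Mrpl4, which lines the exit tunnel, stood at 84.9, 68.5 and 64.9 CPM (WT) and 73.6 and 70.7 (cKO) in set 1, and at 49.4, 55.0 and 64.6 in set 2. The sets came close without overlapping, with a log2 fold change of -0.39 (SE 0.079, edgeR adjusted p = 5.0e-04). Mrpl27, which overlaps Eme1, ran from 98.3 to 107 CPM in set 1 and from 75.1 to 94.8 in set 2 (log2 fold change -0.25, SE 0.0594, edgeR adjusted p = 0.0019). The 2 members above and 3 below without overlap compare with 11.7% and 11.9% of all genes.

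Mrps12 had the largest fitted decrease (-0.60, SE 0.198, edgeR adjusted p = 0.0184) at a low level, 8.18 ± 1.03 CPM in set 1 (SD, n = 5) and 5.43 ± 1.76 in set 2 (SD, n = 7), with overlapping sets. Mrpl28 (-0.31), Mrpl49 (-0.28) and Mrpl9 (-0.28) kept their calls without any single library, as did Mrps6, Mrps18b, Mrps7, Mrpl4, Mrpl27 and Mrps12. Mrpl34 (-0.27), Mrps11 (-0.26), Mrps33 (-0.21) and Mrps21 (-0.19) did not. Mrps33 lost its call without cKO replicate 1, and Mrpl34 and Mrps21 without any of 5 or more libraries. Mrps11 stood at 58.5 ± 4.03 CPM in set 1 and 49.4 ± 5.74 in set 2 (SD, n = 5 and 7; edgeR adjusted p = 0.0165) and lost its call without WT replicate 4. Its back-to-back partner Mrpl46 stood at 118 ± 6.97 and 116 ± 6.97 CPM (log2 fold change -0.0036, edgeR adjusted p = 0.964).

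**Figure D3:**
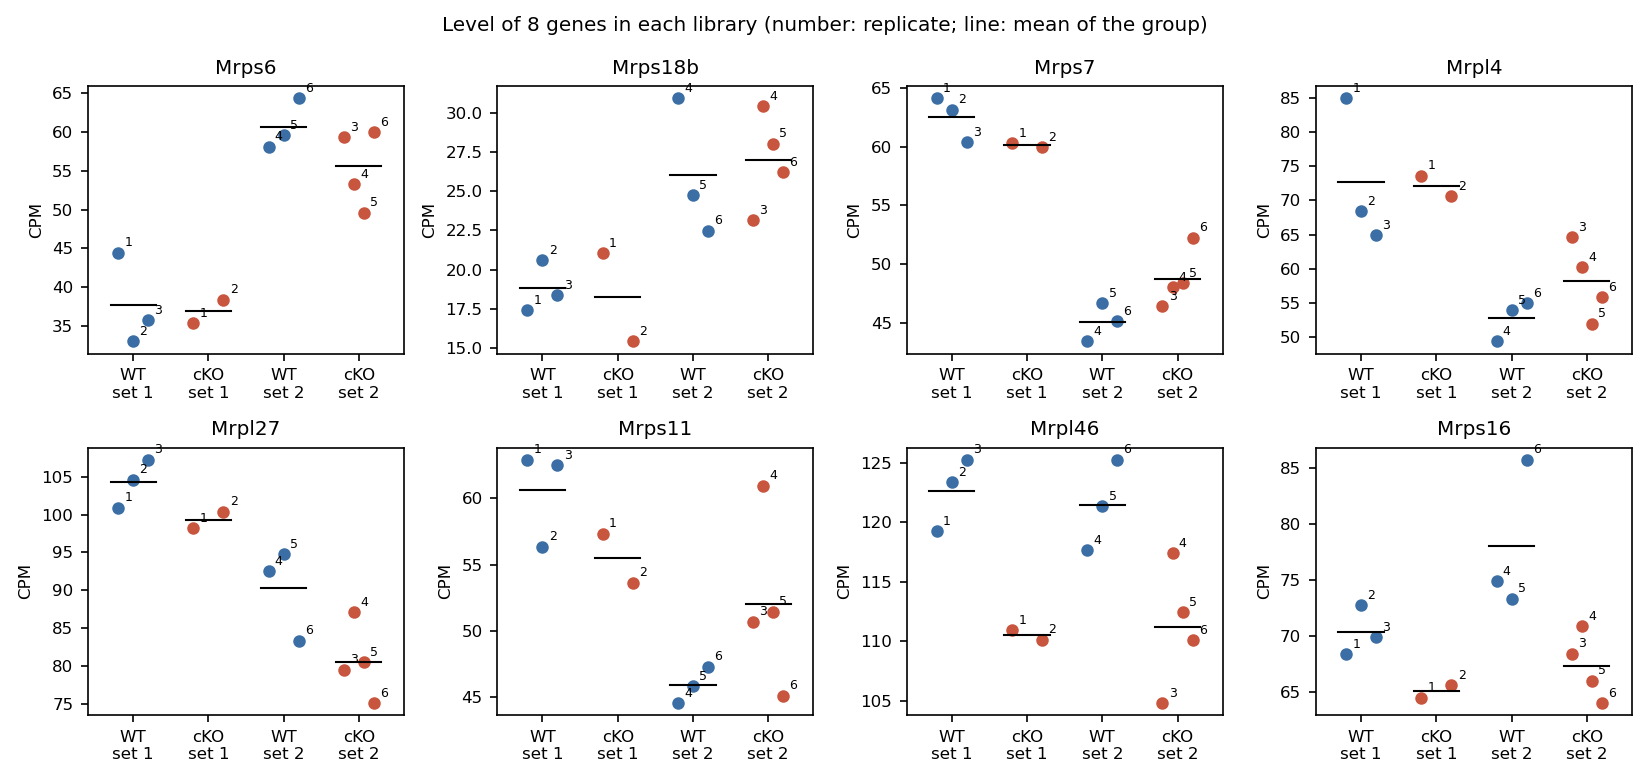
Level in CPM (vertical axes, not starting at 0) of 8 genes in each library, by genotype and set, with points numbered by replicate and lines at group means. Mrps6 and Mrps18b are higher and Mrps7, Mrpl4 and Mrpl27 lower in every set 2 library, Mrpl46 is lower in every cKO than in every WT library, and for Mrps11 and Mrps16 the groups overlap.

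Set beside these 9 higher and 11 lower members, the calls of 2 other multi-protein machines between sets lay mostly on one side. Of 35 tested nuclear subunits of complex I of the respiratory chain, 24 were called lower and 0 higher in set 2 (median log2 fold change -0.21). Of 78 tested proteins of the cytosolic ribosome, close paralogs included, 37 were called higher and 1 lower (median 0.20). Over all genes, 21.5% were called higher and 22.2% lower. By genotype the medians of the 3 groups lay close together, at -0.067 for complex I (27 of 35 below 0), -0.053 for the cytosolic ribosome (62 of 78) and -0.057 for the mitochondrial ribosome, with 0 genes called in each. Differences between these groups were not tested.

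**Figure D4:**
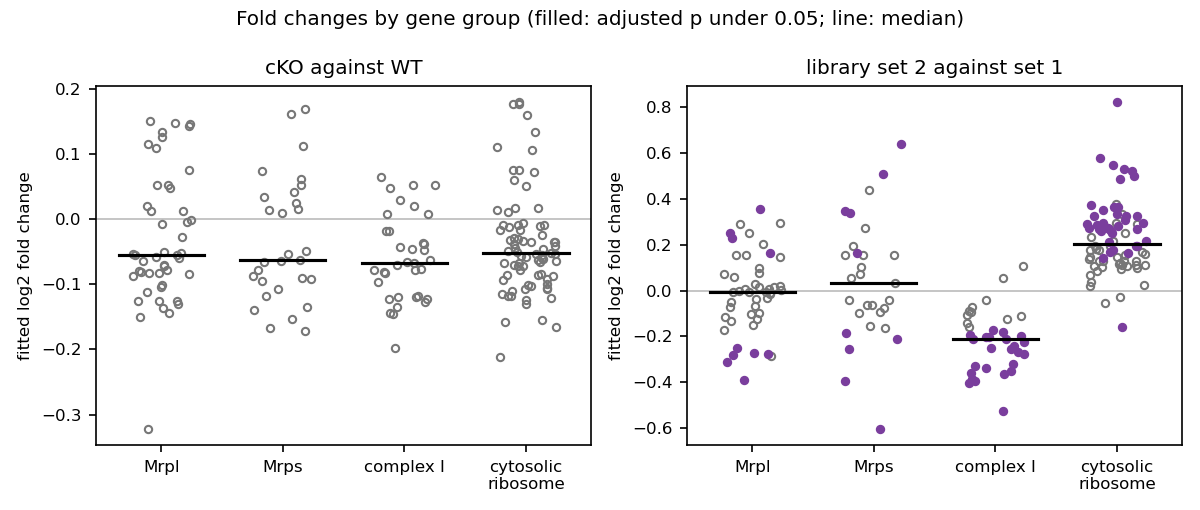
Fitted log2 fold changes of single genes (points, filled where the adjusted p is under 0.05) and their medians (lines) for Mrpl, Mrps, complex I and cytosolic ribosome genes, for cKO against WT (left) and library set 2 against set 1 (right). On the right, 24 of 35 complex I genes are called lower, 37 of 78 cytosolic ribosome genes higher, and Mrpl and Mrps genes fall on both sides of 0.

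The third question was whether the genotype difference itself changed between sets. No member was called for the interaction by edgeR (0 of 76, against 0.0% of all genes), DESeq2 or limma voom, and 1 member had an edgeR p under 0.05 before adjustment, against 3.54% of genes. That member was Mrps23, a small subunit protein without a bacterial counterpart. Fitted in each set alone, its genotype difference was -0.11 (log2) in set 1 and 0.27 in set 2, with an interaction of 0.38 (SE 0.156, edgeR adjusted p = 0.9999). Mrps11 followed with 0.31 (SE 0.155) and Mrpl21 with -0.25 (SE 0.123). The simulated recovery for the interaction was 5.0% at a log2 difference of 0.5 and 63% at 1.0, with the same limits as for genotype.

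Proteins of the mitochondrial ribosome that carry other names were followed beside the members. Dap3, Chchd1, Aurkaip1, Ptcd3, Gadd45gip1 and Ict1, which is now called Mrpl58 and releases stalled chains, were all tested and 0 were called by genotype. Between sets, Dap3, a GTP-binding protein of the small subunit, was called lower in set 2, from 193 ± 9.37 to 160.5 ± 9.19 CPM (SD, n = 5 and 7; log2 fold change -0.27, SE 0.0559, edgeR adjusted p = 6.1e-04). Chchd1 was called higher (0.17, SE 0.057, edgeR adjusted p = 0.0245).

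Of 28 tested genes for rRNA modification and ribosome assembly, 0 were called by genotype, and 3 were called higher and 6 lower in set 2. That is 32.1% called between sets, against 43.8% of all genes (21.5% higher and 22.2% lower). Gtpbp10, with the smallest p of the list, was called higher (log2 fold change 0.50, SE 0.0875, edgeR adjusted p = 1.3e-04). Among the lower genes, Oxa1l, which inserts the new chains into the inner membrane, had a log2 fold change of -0.42. Ftsj2, now Mrm2, an rRNA methyltransferase, had -0.65. Of 17 translation factors, 0 were called by genotype, and 0 higher and 3 lower in set 2 (17.6%, also below the share of all genes). The initiation factor Mtif3 stood at 29.996 ± 3.28 CPM in set 1 and 18.1 ± 2.26 in set 2 (SD, n = 5 and 7; log2 fold change -0.75, SE 0.101, edgeR adjusted p = 7.4e-06). The elongation factor Tufm, at -0.43, and Taco1, a translational activator, at -0.55, were the others.

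HAC-seq gives a second readout of the same transcripts that the naming rule did not use. Reads that start just after a cytidine are counted against all reads that cover it, and their percentage is the cleavage level at that C site. Of 118890 sites, 304 (0.256%) were listed under 31 member genes, 232 of them under Mrps6, of which 207 are also listed under Slc5a3. Every listed site had at least 2 read starts in each WT library, so sites with fewer there could not be seen. How far this favours sites with higher levels in WT was not tested. Only 7 member sites met the minimum coverage of 50 reads in each library and a mean level of 5%, and 0 were called against 1 of all 13240 sites tested (0.00755%). At an unadjusted p under 0.05 there was 1 member site against 8.64% of all sites. It lay in Mrpl52, a large subunit protein gene, at chr14:54428647 on the plus strand (GRCm38.p6), with 63 to 114 covering reads per library. The level was 2.63%, 8.75%, 2.68% and 6.32% in the WT libraries and 13.9%, 11.1% and 15.2% in the cKO libraries. The lowest cKO library was above the highest WT library, with means of 5.09% ± 2.99 in WT (SD, n = 4) and 13.4% ± 2.10 in cKO (SD, n = 3). The quasi-binomial fit over all sites with limma gave an adjusted p of 0.521, so the site was not called. The authors' deposited table gives p = 0.00756 for this site.

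The other 6 tested sites were 5 in Mrps6 and 1 listed under Mrpl47 and its back-to-back neighbour Ndufb5. The last, at chr3:32737155 on the plus strand, had mean levels of 6.42% in WT and 6.02% in cKO libraries. It lies on the strand of Ndufb5 and beyond the RefSeq span of Mrpl47, a minus-strand gene that reaches to 32736755. It is therefore not taken as a site of an Mrpl47 transcript. In Mrps6 at chr16:92111762 the level was 6.26% ± 1.28 in WT (SD, n = 4) and 3.98% ± 0.904 in cKO libraries (SD, n = 3), with an adjusted p of 0.723 in the same limma-squeezed fit, although the groups did not overlap. That site is also listed under Gm49711, and the authors' deposited table gives p = 0.0399 for it. At the 3 Mrps6 sites next by p, the WT and cKO means were 5.24% and 7.79% at chr16:92058399, 4.34% and 6.08% at chr16:92083817, and 6.72% and 5.32% at chr16:92058400. Their ranges overlapped at each site, and these 3 are also listed under Gm49711 and Slc5a3.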

How the data were processed

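Tools named in the submitters' processing notes are STAR 2.5.2a, Trimmomatic 0.32 and bcl2fastq 2.17.1.14, and the builds are GRCm38 (RNA-seq) and GRCm38.p6 (HAC-seq). The sources used here do not name the counting program or its annotation. RNA-seq libraries followed SMART-seq2, which does not mark strand, so 19 members that overlap another protein-coding RefSeq gene are uncertain. Raw counts per gene were deposited for the 12 RNA-seq libraries. Odd numbers made up 17.4% of the counts between 1 and 10 and 50.1% of those between 101 and 1000. The deposited HAC-seq table holds read starts and coverage (a signal), their ratio as a fraction, and the authors' p-value for each site. It repeats 16692 entries, used once. The number of sample columns left out was 0.

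Counts were fitted in R 4.3.3 with edgeR 4.0.16 (TMM, filterByExpr by genotype, quasi-likelihood F test, two-sided) with genotype and library set as terms, and with their interaction in a second fit. Benjamini-Hochberg adjustment covered all 13105 genes tested, with a threshold of 0.05. The SE comes from the F statistic. For HAC-seq, a quasi-binomial model took read starts as a share of coverage, with dispersions squeezed by limma 3.58.1, at sites with coverage of at least 50 and a mean ratio of at least 0.05. The tests were checked on simulated data. Other settings were DESeq2 1.42.0, limma voom, upper-quartile scaling, other filters, halved counts, embryo sex as a covariate, single sets or genotypes, a replicate block and leaving out each library.

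Named members were the 6 (genotype) and 8 (set) of smallest p in each direction, the 3 of smallest p for the interaction, a list fixed by role and any member called, and for HAC-seq the sites of smallest p. Levels per length were not used because no transcript lengths were at hand. The lists of complex I and cytosolic ribosome genes were taken by name, and after their values were seen 11 genes named Rps that encode S6 kinases or a binding protein were left out, as were Ndufa4 and Ndufa4l2. The members and lists were chosen with earlier results of these data known. Gene positions and promoter sequences are from RefSeq, GRCm38.p6, and all 76 symbols matched.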

Additional observations from a re-analysis of the deposited data

Results flagged for a closer look

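In 84 groups of 6 libraries, a library far from the other 5 of its genotype was found 6 times by Dixon's test, and chance alone flags about 1 group in 20. WT replicate 1 stood at 38.2 CPM for Mrpl34, with the others from 21.7 to 27.4. The cKO replicate 3 library stood at 44.7 CPM for Mrpl39, with the others from 59.4 to 62.1. The cKO replicate 4 library, the one with the fewest counts, was high for Mrpl40 (93.8 CPM, others 64.7 to 75.3), Mrpl47 (69.1, others 41.4 to 51.7) and Mrps23 (43.5, others 37.1 to 38.9). It was also high for the summed Mrpl genes (4673 CPM, others 4278 to 4417).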

How the results depend on the processing

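By genotype, for the interaction and for HAC-seq sites, 0 members or sites were called under each alternative that was run. At a coverage of at least 100 reads no member site was left, so that alternative gives no value. Leaving out single libraries, the genotype medians ran from -0.064 to -0.039 (Mrpl) and from -0.079 to -0.015 (Mrps), and the Mrps median was 0.0070 in set 2 alone. Between sets, the members called were 11 in WT libraries alone (2 higher, 9 lower) and 4 in cKO libraries alone (3 higher, 1 lower). Leaving out single libraries, they were 13 to 20, with medians from -0.034 to 0.0097 (Mrpl) and from -0.014 to 0.066 (Mrps). These counts stand without the shares of all genes called in the same fits. Of the 20 calls, 9 were kept and 11 lost on leaving out at least 1 library, and only Mrps6 kept its call in every alternative. Same-numbered libraries correlated from -0.13 to 0.30, and samples were not treated as pairs. With only 2 cKO libraries in set 1, and replicate 3 in different sets, these correlations cannot settle whether samples were paired by replicate number. With a replicate block on that number, 1 member was called between sets (1024 of 13105 genes), with medians of -0.048 (Mrpl) and -0.096 (Mrps), since replicate 3 is then the only number found in both sets. In that block fit the sign turned for Mrpl3 (-0.0011), Mrpl34 (0.14), Mrpl47 (-0.10), Mrps12 (0.31), Mrps17 (-0.092) and Mrps28 (-0.15). The block called 0 members by genotype (medians -0.038 and -0.042). Mrps30, not called between sets, was called in 4 alternatives. Depth limits 3 members with a mean count under 50, Mrpl36, Mrps26 and Mrpl23.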

Other observations

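The lean of the genotype differences toward lower cKO levels lay with the members of higher counts, a split made after the values were seen and given no test. Of the 38 members above the members' median of 1004 counts, 32 had a log2 fold change below 0, with a median of -0.074, against 48.7% of the 3391 genes at that level. Of the 38 at or below it, 17 were below 0, with a median of 0.018, against 50.9% of 9714 genes. The sign was the same in both library sets fitted alone for 49 members, of which 37 were below 0 and 12 above. The share of all genes with the same sign in both sets is not given here. These counts are therefore not read as a result about the members.

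Some back-to-back neighbours that are not members were chosen after their values were seen. Tcp1, a cytosolic chaperonin subunit, was called higher in set 2 (log2 fold change 0.33, edgeR adjusted p = 8.0e-06), as was its partner Mrpl18 (0.16, adjusted p = 0.019). Klc4, a kinesin light chain, was called lower (-0.86, edgeR adjusted p = 0.0159), while its partner Mrpl2 was not called (-0.29, adjusted p = 0.0756). Tcp1 overlaps Mrpl18 and Klc4 overlaps Mrpl2, and the libraries do not mark strand. How reads were divided within these pairs was not tested, so their values are uncertain. Fau, the partner of Mrpl49, and Gga3, the partner of Mrps7, were not called (-0.17 and -0.013, edgeR adjusted p = 0.338 and 0.936). The neighbour 2610507I01Rik was called lower (-0.50, edgeR adjusted p = 0.0011), while its partner Mrpl55 was not called (-0.013, adjusted p = 0.887). Hira (-0.073) and Ndufb5 (-0.11), not called, had the opposite sign to their called partners Mrpl40 (0.23) and Mrpl47 (0.25). Whether neighbours changed together was not tested.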
